A study of Mus musculus with 6 samples.

Results

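CD200 receptor 1 (Cd200r1) and the T cell-interacting activating receptor Tarm1 are surface proteins of myeloid cells, and both transcripts were lower in J774A.1 macrophages given neuropeptide FF. They are described here with 8 related genes, namely the ligand Cd200, the CD200 receptor relatives Cd200r3 and Cd200r4, and the receptors Pirb, Sirpa, Cd300a, Cd300lf and Siglece. The set of 10 genes, of 22180 measured, was chosen by family and because Cd200r1 and Tarm1 were lower after NPFF in these same arrays. For those 2 genes the difference between groups is therefore given as a description with no test. Each of the 10 genes had exactly 1 array feature naming it alone, so the rule of keeping the brightest feature per gene left nothing to choose.

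J774A.1 is an established macrophage-like line of BALB/c mouse origin. Control cells (3 arrays) received phosphate-buffered saline (PBS) as vehicle for 18 h, and treated cells (3 arrays) received NPFF at 1 nM in PBS for the same time. The sample titles call the control cells non-treated. The medium for all cells was RPMI-1640 containing fetal calf serum at 10%, and 500 ng of total RNA per sample was labelled for Affymetrix whole-transcript arrays. The titles call the replicates biological but do not say whether they were separate cultures, so any p-value here reflects only how these samples vary, which may be technical. The question was which transcripts of this receptor group differed after exposure to the amidated neuropeptide.

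Myeloid cells carry paired receptors, in which closely related proteins send opposite signals. Inhibitory members hold tyrosine motifs in their tails that recruit the phosphatases encoded by Ptpn6, Ptpn11 and Inpp5d, whereas activating members have short tails and signal through the adaptors Tyrobp or Fcer1g. CD200R1 is an exception among the inhibitory receptors, since its tail binds the Dok adaptors and, through them, the Ras GTPase-activating protein encoded by Rasa1. In macrophages these receptors set how strongly the cell responds to microbes, dying cells and neighbouring cells.

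Values are quantile-normalized log2 intensities, SD is over the 3 arrays of a group, and differences are NPFF minus control. Control 1 stood apart before any gene was considered. The SD over genes of its difference from the mean of the other 5 arrays was 0.374, against 0.109 to 0.205 for the others. The 10 macrophage markers had list means of 10.18 to 10.53 in the controls, with control 1 lowest, and 10.42 to 10.52 in NPFF. Lists of lymphocyte, neutrophil, mast cell and basophil, fibroblast and endothelial markers lay between 5.37 and 6.09 on all arrays, in overlapping ranges. Their part in the results below was not tested. In RNA from whole cultures, fewer cells expressing a gene and less RNA per cell cannot be told apart.

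Cd200r1 stood at 6.35, 6.67 and 6.42 in controls 1, 2 and 3 and at 6.09, 6.23 and 6.19 in the NPFF arrays. Every NPFF array lay below every control, with a gap of 0.12 between the lowest control and the highest NPFF array, and control 2 was the highest. The control mean was 6.48 ± 0.17 (SD, n = 3) and the NPFF mean 6.17 ± 0.07 (SD, n = 3). Mean signal was at the 45.33rd percentile over all genes, where the fibroblast markers reached up to the 55.92nd. The difference was -0.31, or 1.24-fold lower. Its size depended on the control it was measured against, being -0.18 against control 1, -0.50 against control 2 and -0.25 against control 3. Over 15 other settings of normalization, fit and left-out arrays it lay between -0.37 and -0.21. With the values as deposited the arrays stood at 6.44, 6.64 and 6.38 in control and 6.08, 6.22 and 6.20 in NPFF, again without overlap.

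Tarm1, an activating receptor that pairs with the Fc receptor gamma chain and binds collagens, stood at 8.87, 8.65 and 8.79 in the controls and at 8.29, 8.40 and 8.40 in the NPFF arrays. The groups were separated by a gap of 0.25, which was wider than the range of either group, 0.22 in control and 0.11 in NPFF. The means were 8.77 ± 0.11 (SD, n = 3) and 8.36 ± 0.06 (SD, n = 3), a difference of -0.41, or 1.33-fold lower. Against controls 1, 2 and 3 singly it was -0.51, -0.29 and -0.42. With the values as deposited the arrays stood at 8.73, 8.73 and 8.84 in control and 8.31, 8.42 and 8.40 in NPFF, again without overlap. The order of the controls depended on the normalization, control 1 being the highest control after quantile normalization and the lowest as deposited. Over the 15 other settings the difference lay between -0.47 and -0.36.

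Among the 10 genes, these 2 were the ones whose groups did not overlap, both with NPFF lower. Over all 22180 genes, 8.58% had groups that did not overlap, 4.92% with NPFF lower and 3.67% with NPFF higher. Since Cd200r1 and Tarm1 entered the set for being lower, nothing is read from that count. Of the other 8 genes, 0 had groups that did not overlap. Among them 4 had a lower mean and 4 a higher mean in NPFF, where 48.3% of all genes had a lower mean. Their median difference was -0.0063, beside 0.0037 over all genes. By limma with Benjamini-Hochberg adjustment over all genes, 0 of the 8 passed an adjusted p of 0.05, each having an adjusted p of 0.9996, and 0 had an unadjusted p under 0.05. Over all genes 0 passed (0%), and 556, or 2.51%, had an unadjusted p under 0.05.

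**Figure D1:**
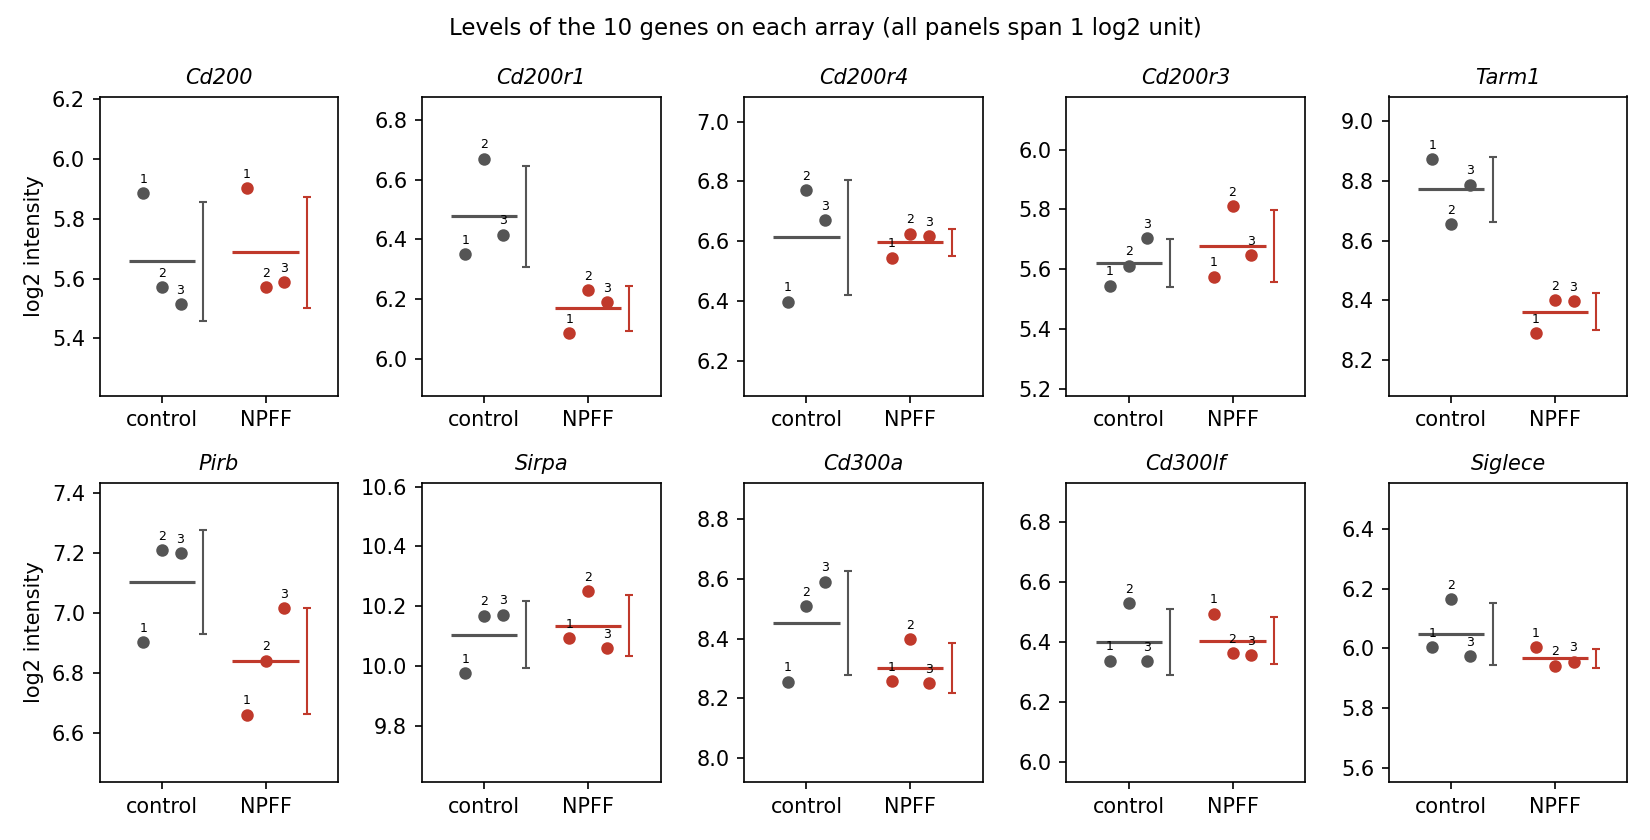
Log2 intensity of the 10 genes on each array, with control arrays in grey and NPFF arrays in red, the replicate number beside each point, the group mean as a line and the SD (n = 3) as a bar at the right. Every panel spans 1 log2 unit, and only in the panels of Cd200r1 and Tarm1 do all red points lie below all grey points.

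Cd200, the membrane ligand of CD200R1, stood at 5.89, 5.57 and 5.51 in the controls and at 5.90, 5.57 and 5.59 in the NPFF arrays. In each group the array numbered 1 lay above the others, and the SD, 0.20 in control and 0.19 in NPFF, was far wider than the difference of 0.03 (95% interval -0.29 to 0.36). The feature was dim, at the 24.25th percentile of mean signal over all genes, a guide that also depends on each feature's probes. Cd200r4, an activating relative of CD200R1 that signals through the adaptor encoded by Tyrobp, stood at 6.40, 6.77 and 6.67 in the controls and 6.55, 6.63 and 6.62 in NPFF. All NPFF values lay inside the control range, and the difference was -0.02 (95% interval -0.27 to 0.24). Cd200r3, an activating relative known from mast cells and basophils, stood at 5.54, 5.61 and 5.70 in the controls and 5.57, 5.81 and 5.65 in NPFF, a difference of 0.06 (95% interval -0.15 to 0.26). The 10 mast cell and basophil markers had list means of 5.37 to 5.44 in control and 5.37 to 5.42 in NPFF.

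The 4 CD200 receptor genes follow each other in the RefSeq gene order of mouse, from Cd200r1 over Cd200r4 and Cd200r2 to Cd200r3. Cd200r2, named here after its values were seen, had a mean of 5.31 ± 0.08 (SD, n = 3) in control against 5.19 ± 0.03 (SD, n = 3) after NPFF. The groups did not overlap, and the difference was -0.12 (SE 0.07). It was dim, at the 10.14th percentile of mean signal. Next to Cd200r1 on its other side lies Gtpbp8, which differed by 0.17 (SE 0.26). The 95% interval of Cd200r2, -0.28 to 0.04, included 0, as did those of Cd200r4 and Cd200r3. Without control 2, Cd200r2 differed by -0.08. Whether the differences of these neighbours differ from that of Cd200r1 was not tested.

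Pirb, an inhibitory receptor of the leukocyte receptor complex that binds class I histocompatibility molecules, stood at 6.90, 7.21 and 7.20 in the controls and at 6.66, 6.84 and 7.02 in the NPFF arrays. The groups overlapped through control 1, which lay below NPFF 3. The means were 7.10 ± 0.17 and 6.84 ± 0.18 (SD, n = 3 each), and the difference of -0.27 (95% interval -0.57 to 0.04) was the widest among the 8 tested genes. Against controls 1, 2 and 3 it was -0.06, -0.37 and -0.36. It stayed below 0 in all 15 other settings, between -0.38 and -0.18. The 4 listed Pira genes, near-copies that encode activating partners, had no feature of their own, and whether their transcripts add to the signal of Pirb was not tested.

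Cd300a, an inhibitory receptor for lipids of dying cells, stood at 8.26, 8.51 and 8.59 in the controls and at 8.26, 8.40 and 8.25 in NPFF. Control 1 lay among the NPFF arrays and controls 2 and 3 above all of them, and the difference was -0.15 (95% interval -0.40 to 0.10). It was -0.25 without control 1 and -0.08 without control 3. Siglece, an inhibitory sialic acid-binding lectin, stood at 6.01, 6.17 and 5.97 in the controls and at 6.004, 5.94 and 5.96 in NPFF. Of the 9 pairs of an NPFF with a control array, 8 had the lower value in NPFF, but the difference was only -0.08 (95% interval -0.26 to 0.10), and -0.02 without control 2. Sirpa, the inhibitory receptor for the "don't eat me" protein CD47, stood at 9.98, 10.17 and 10.17 in the controls and 10.09, 10.25 and 10.06 in NPFF. The groups interleaved, with a difference of 0.03 (95% interval -0.18 to 0.24).

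The intervals of these 3 genes reached no farther than -0.40 and 0.24. Limma with array weights estimated by restricted maximum likelihood called Pirb (-0.38, adjusted p = 0.0287) and Cd300a (-0.29, adjusted p = 0.0257). That estimation stopped before reaching its tolerance and rested on control 3 with a weight of 22.6, and it called 1127 genes over the whole table. With weights from the gene-by-gene method 0 genes were called.

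Cd300lf, an inhibitory relative of Cd300a, stood at 6.34, 6.53 and 6.34 in the controls and at 6.49, 6.36 and 6.36 in NPFF, a difference of 0.0035 (95% interval -0.19 to 0.20). A pair of further features names Cd300lf together with Cd300ld3, Cd300ld4 and Cd300ld5, so their signal cannot be assigned to 1 gene, and the rule leaves them out. Feature 17271751 stood at 10.57, 10.34 and 10.28 in the controls and at 10.02, 10.17 and 10.16 in NPFF. Feature 17271757 stood at 9.68, 9.51 and 9.51 in the controls and at 9.23, 9.39 and 9.37 in NPFF. In both, every NPFF array lay below every control, which was so for 5.1% of all 33794 features. Their differences were -0.29 (SE 0.10) and -0.24 (SE 0.08). Without control 1, the highest array in both, they were -0.20 and -0.18. By limma over all features the unadjusted p was 0.0257 and 0.0244, and the adjusted p was 0.9998 for each. In that fit 0 features passed, and 952 of the 33794, both of these among them, had an unadjusted p under 0.05.

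**Figure D2:**
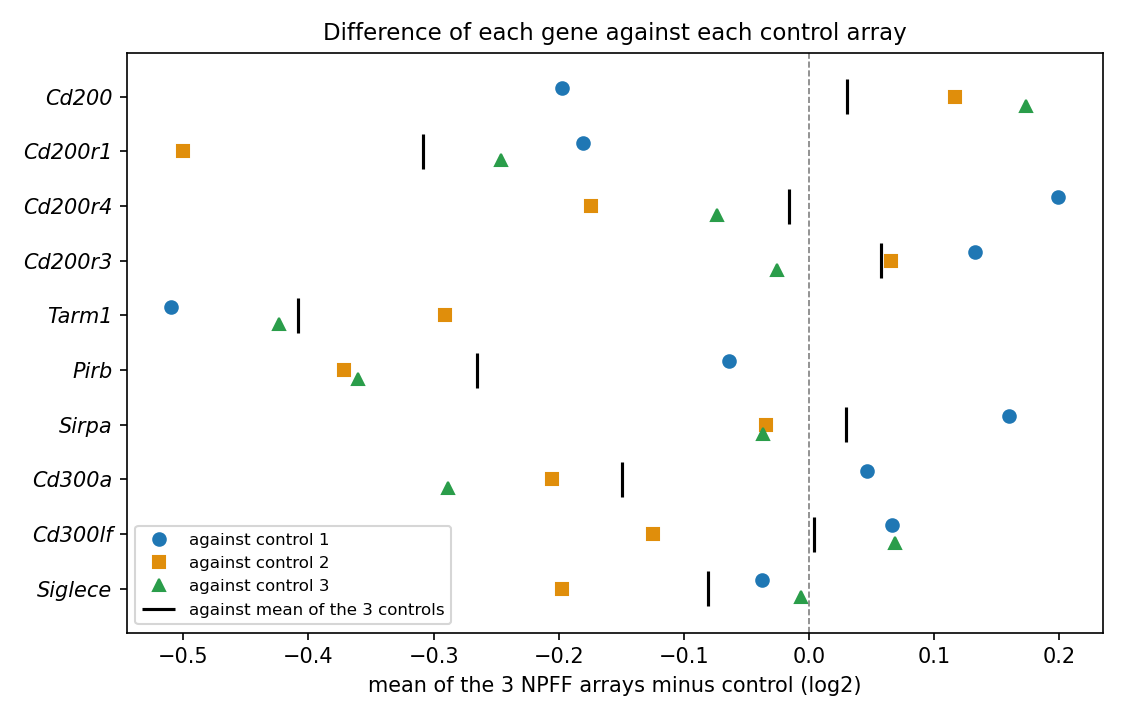
Mean of the 3 NPFF arrays minus each control array singly (coloured symbols, log2) and minus the mean of the 3 controls (black bars) for the 10 genes. All 3 symbols lie left of 0 for Cd200r1, Tarm1, Pirb and Siglece, and the symbols of the other 6 genes fall on both sides of 0.

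The spread of the group followed that of the arrays. In 8 of the 10 genes the SD was larger in control than in NPFF, where 80.4% of all genes had the larger SD in control. The exceptions were Cd200r3, with 0.08 in control and 0.12 in NPFF, and Pirb, with 0.17 and 0.18. After quantile normalization control 1 was the lowest of the controls in 6 genes and the highest in 2, Cd200 and Tarm1, and it was the lowest or highest control in 88% of all genes.

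Tarm1 and Pirb both lie in the leukocyte receptor complex on chromosome 7, and both had lower means in NPFF. Among genes near Tarm1 in the gene order, Tfpt (0.46), Cacng8 (0.29), Prpf31 (0.19), Ndufa3 (0.15) and Cacng7 (0.03) had higher means. Cacng6 (-0.03) and Oscar (-0.04) had lower ones, and the groups of Cacng8 and Prpf31 did not overlap. Whether location or promoter bears on any of these differences was not tested. The promoter windows of Tarm1 and Pirb, 250 bases before to 50 after the gene start, are shown, from RefSeq on build GRCm38.p6, minus strand, at chr7:3502575-3502874 and chr7:3720333-3720632. Capitals mark GAGGAA on either strand, the core of the site of PU.1, a transcription factor that many myeloid genes depend on.
Tarm1: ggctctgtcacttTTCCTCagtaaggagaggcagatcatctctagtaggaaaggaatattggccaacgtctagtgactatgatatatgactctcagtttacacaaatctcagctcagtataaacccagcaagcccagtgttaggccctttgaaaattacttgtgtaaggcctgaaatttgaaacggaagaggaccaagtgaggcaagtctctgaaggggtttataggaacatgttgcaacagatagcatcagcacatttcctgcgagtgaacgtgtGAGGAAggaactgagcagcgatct
Pirb: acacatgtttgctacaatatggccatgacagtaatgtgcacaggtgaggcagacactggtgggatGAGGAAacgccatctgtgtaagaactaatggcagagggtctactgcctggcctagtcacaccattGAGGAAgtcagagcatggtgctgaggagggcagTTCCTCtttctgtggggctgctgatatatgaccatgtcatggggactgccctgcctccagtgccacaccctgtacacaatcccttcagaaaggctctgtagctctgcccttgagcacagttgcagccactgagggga

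These letters occurred 2 times in the Tarm1 window and 3 times in the Pirb window. Windows were found for 8 of the 10 genes, all but Cd200r1 and Sirpa. GAGGAA was present on either strand in 7 of these 8, Cd200r4 being the one without, and in 28.3% of all 32851 windows of this length. The AP-1 letters TGANTCA were in 0 of the 8 windows and 7.81% of all, and GGGNNTTCC, a form of the NF-kB site, in that of Siglece and 5.82% of all. TATAAA was in the windows of Tarm1 and Cd300lf and in 13.6% of all. The 4 motifs do not overlap one another in the 2 windows shown. Such matches describe the letters and do not show that a factor binds.

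Beside the 10 genes, 4 lists of the same signalling system were measured, with 79 other genes in all. By limma with adjustment over all genes 0 of the 79 passed, and 6 (7.59%) had an unadjusted p under 0.05, all with NPFF lower, beside 2.51% over all genes. Groups did not overlap in 14 (17.7%), with NPFF lower in 12 (15.2%) and higher in 2, beside 8.58%, 4.92% and 3.67% over all genes. Of the 79, 45 had a lower and 34 a higher mean in NPFF, where 48.3% of all genes had a lower mean. The median difference of the 79 was -0.03, beside 0.0037 over all genes. The lists were chosen with earlier results of these data known, so no excess is read from these shares. They also differ from all genes in signal, with median percentiles from 53.44 to 84.85 by list.

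Of 25 other inhibitory receptors, 15 were lower and 10 higher in NPFF by their means, with a median difference of -0.04, and 0 passed the test (2 with an unadjusted p under 0.05). Groups did not overlap in 4, each with NPFF lower. Klra2, a lectin-like receptor of the Ly49 family, stood at 6.77, 6.98 and 7.12 in the controls and at 6.69, 6.47 and 6.56 in NPFF, a difference of -0.39 (SE 0.11). Clec4a2, a C-type lectin with an inhibitory tail, differed by -0.21 (SE 0.08). Fcgr2b, the inhibitory receptor for immunoglobulin G, differed by -0.12 (SE 0.07), and Clec12a, an inhibitory lectin that senses dead cells and was named after its values were seen, by -0.15 (SE 0.07). Without control 2, Fcgr2b differed by -0.08, and its groups were only just apart, with NPFF 2 at 10.4241 and control 1 at 10.4325. Lilrb4a, the bright inhibitory receptor of mouse macrophages also called gp49B, differed by -0.11 (SE 0.11), and Lair1, the inhibitory collagen receptor, by -0.09 (SE 0.14). The groups of the last 2 overlapped.

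Among 16 other paired activating receptors, 12 were lower and 4 higher in NPFF by their means, where 48.3% of all genes were lower. Their median difference was -0.07, and 0 passed (1 with an unadjusted p under 0.05). That median was -0.13 without control 1 and -0.04 without control 2. The signal regulatory proteins Sirpb1a and Sirpb1c, activating relatives of Sirpa, had the widest differences without overlap. Sirpb1a stood at 9.35, 8.74 and 8.64 in the controls and 8.41, 8.47 and 8.56 in NPFF, and Sirpb1c at 8.40, 8.11 and 7.88 against 7.68, 7.74 and 7.73. Control 1 was the highest array in both, and the differences were -0.43 (SE 0.19) and -0.41 (SE 0.13). Without control 1 they were -0.21 and -0.28. The Sirpb1 genes are close copies, and probes could take signal from one another. Cd300lb and Cd300ld, activating members of the Cd300 family, went the other way, at 0.31 (SE 0.24) and 0.41 (SE 0.44), with control 1 at 8.59 and 9.27 and the other 5 arrays from 9.44 to 9.51 and from 10.71 to 10.97. Without control 1, Cd300lb differed by 0.01 and Cd300ld by -0.14. Oscar, the activating collagen receptor next to Tarm1 in the gene order, differed by -0.04 (SE 0.08) and was dim.

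For 13 other ligand genes, 8 were lower and 5 higher by their means, with a median of -0.02, and 0 had groups that did not overlap or an unadjusted p under 0.05. Cd47, the ligand of Sirpa, stood at 10.24, 10.07 and 10.30 in the controls and 9.99, 10.16 and 10.13 in NPFF, a difference of -0.11 (SE 0.09). Thbs1, thrombospondin, another ligand in the CD47 system, differed by -0.02 (SE 0.06).

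The 25 adaptors, kinases and phosphatases had a median difference of 0.05, with 15 higher and 10 lower in NPFF by their means, and 0 passed (3 with an unadjusted p under 0.05). That median was -0.07 without control 1. Fcer1g, the gamma chain through which Tarm1 signals, stood at 12.77, 12.75 and 12.65 in the controls and at 12.45, 12.56 and 12.59 in NPFF. The groups did not overlap, and the difference was -0.19 (SE 0.07; by limma, unadjusted p = 0.0366 and adjusted p = 0.9996). Tyrobp, the adaptor of the activating CD200 receptors, differed by -0.18 (SE 0.11) with overlap and by -0.10 without control 2, and Hcst, a related adaptor, by 0.02 (SE 0.09). On the side of CD200R1 signalling, Rasa1 stood at 10.95, 10.72 and 10.63 in the controls and 10.58, 10.54 and 10.57 in NPFF, a difference of -0.20 (SE 0.09) without overlap, and of -0.11 without control 1. Dok1 and Dok2, the adaptors between them, differed by 0.32 (SE 0.37) and 0.19 (SE 0.13). Control 1 was low for both, and without it Dok1 differed by -0.14 and Dok2 by 0.04.

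Among the phosphatases of the inhibitory receptors, the differences of Ptpn6 and Ptpn11 shrank once control 1 was left out, and that of Inpp5d did not. Ptpn6, which encodes SHP-1, stood at 10.46, 10.82 and 10.80 in the controls and 10.88, 10.84 and 10.82 in NPFF. It was higher by 0.15 (SE 0.11), though by 0.04 without control 1. Its groups were only just apart, with NPFF 3 at 10.8216 and control 2 at 10.8203. Ptpn11 differed by 0.10 (SE 0.10) and Inpp5d by 0.0015 (SE 0.10), both with overlap, and without control 1 by 0.00098 and -0.09. Syk, the kinase below the activating adaptors, differed by 0.13 (SE 0.17), or -0.05 without control 1. Fyb, an adaptor of integrin and SIRP-alpha signalling, differed by -0.38 (SE 0.12) and Cblb, a ubiquitin ligase that limits receptor signalling, by -0.25 (SE 0.08), both without overlap. Control 1 was the highest array for both, and without it Fyb differed by -0.26 and Cblb by -0.19. Crkl and Cbl, named after their values were seen, also had separate groups, at 0.16 (SE 0.10) and -0.12 (SE 0.07). Crkl differed by 0.06 without control 1, and Cbl by -0.08 without control 2.

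**Figure D3:**
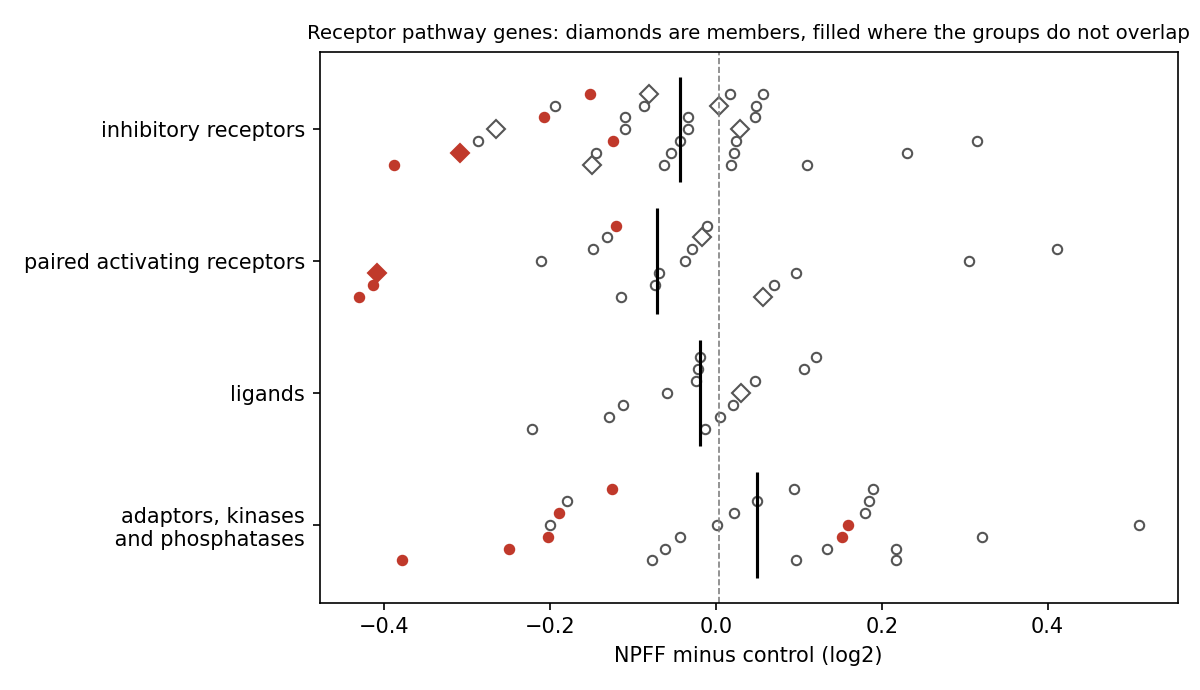
NPFF minus control (log2) for the genes of the 4 lists, with the 10 described genes as diamonds, other genes as circles, filled symbols where the groups do not overlap, and black bars at the median of the other genes of each list. The dashed line is the median of all 22180 genes, 0.0037, and the filled symbols lie left of it apart from Ptpn6 and Crkl among the adaptors, kinases and phosphatases.

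Profiles like those of Cd200r1 and Tarm1 were sought by the root mean square difference between mean-centred values over the 6 arrays, with no test, since the closest of 22180 genes will always be close. Nearest to Cd200r1 were Slfn3, a Schlafen family gene, at 0.03, Dnmbp, a scaffold protein of actin regulation, at 0.03 and Tlr9, the endosomal receptor for unmethylated DNA, at 0.04. Each stood highest in control 2 and lowest in NPFF 1, as Cd200r1 did. Nearest to Tarm1 were Tlr8, an endosomal RNA receptor, at 0.04, C3ar1, the receptor for complement C3a, at 0.05 and Parp4 at 0.06. Cd200r1 and Tarm1 themselves were 0.17 apart. With the values as deposited, Slfn3, Dnmbp and Tlr9, picked after quantile normalization, were 0.10 to 0.13 from Cd200r1. For scale, the root mean square of the mean-centred values of Cd200r1 itself was 0.19 after quantile normalization.

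**Figure D4:**
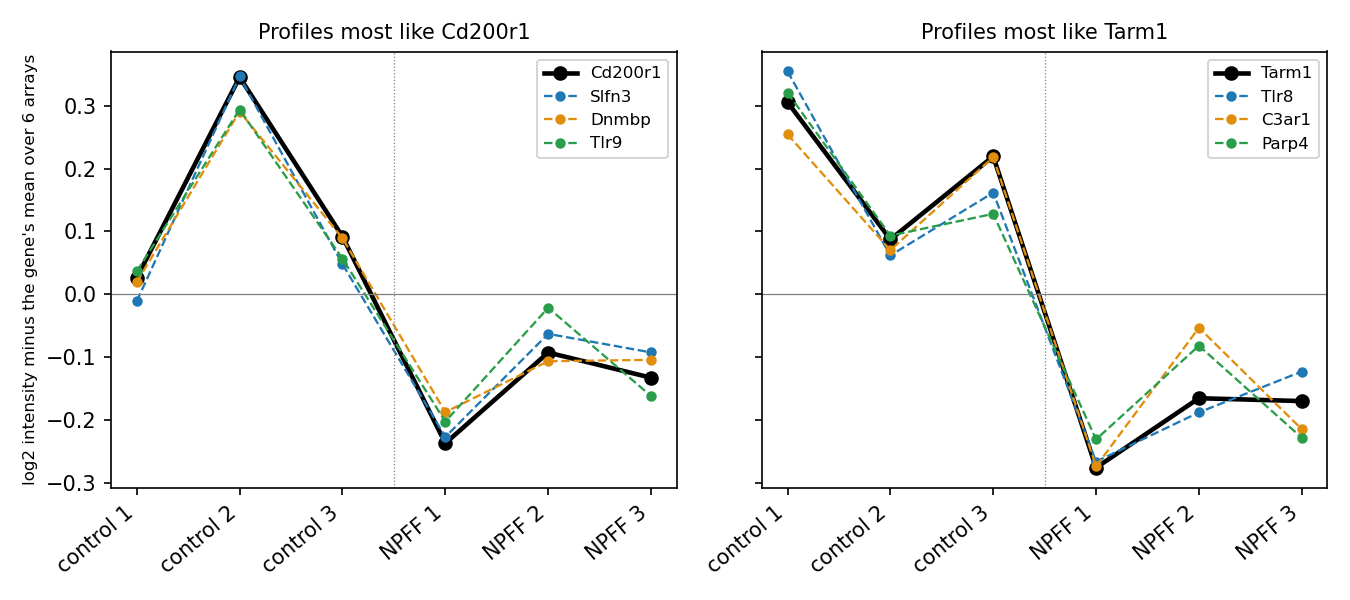
Log2 intensity minus each gene's own mean over the 6 arrays, for Cd200r1 (left) and Tarm1 (right) in black with the 3 nearest genes in colour. After quantile normalization Cd200r1 peaks in control 2 and Tarm1 in control 1, whereas as deposited Tarm1 peaks in control 3. All 8 curves are below 0 in the 3 NPFF arrays.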

How the data were processed

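Per the labels' protocols, total RNA of 6 J774A.1 samples was labelled for Affymetrix whole-transcript arrays. The deposited table holds 1 value per transcript cluster, taken to be log2 intensity because all values fell between 4.591 and 14.0. The authors' background correction, normalization and genome build were not given in these sources. An annotation table paired 23521 of 33794 features with 1 gene symbol. Because sorted array values departed by up to 0.172 from their mean, quantile normalization over all features was applied. The brightest feature per gene was kept, with no filter. Limma (version 3.58.1, R 4.3.3) compared NPFF with control on group alone, two-sided, across all 22180 genes with Benjamini-Hochberg adjustment. Residual degrees of freedom were 4 and prior ones 2.49. The script was tested on simulated data. The number of arrays limits the precision.

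The 10 genes and all lists were chosen with earlier results of these data known. Of 4 pathway lists, 14 genes had no feature of their own and 1 entry repeated another. Named were the 10 genes, those of 21 fixed pathway genes that are reported here, up to 2 of the widest differences without overlap per list (the ligands had none), and the 3 nearest profiles. Clec12a, Cd200r2, Crkl, Cbl, Col1a2, Gtpbp8 and the neighbours of Tarm1 other than Oscar were added after values were seen. Alternatives covered normalization, feature choice, dim genes, array weights, the replicate block and left-out arrays.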

Additional observations from a re-analysis of the deposited data

How the results depend on the processing

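Cd200r1, Tarm1, Pirb, Cd300a and Siglece kept a lower mean in NPFF in all 15 other settings, which reuse the same 6 arrays. For Cd200r1 and Tarm1 all 9 pairs were lower in NPFF, so leaving out or weighting arrays could not reverse the sign. Averaging features, removing dim genes and the replicate block left the differences of these genes unchanged by design. The kept sign is therefore no separate support. The count of genes past the threshold was 0 in 14 of the 15 settings and 1127 of 22180 with restricted maximum likelihood array weights. There 6 pathway list genes were called, among them Klra2 (-0.53), Clec4a2 (-0.32) and Col1a2, which was higher (0.25). Pirb (-0.38) and Cd300a (-0.29) were called besides. Several differences changed sign, those of Cd300ld (0.41), Dok1 (0.32) and Cd300lb (0.31) among them, and the cause was not tested. With single arrays left out, ranges crossing 0 were -0.077 to 0.14 for Cd200, -0.0091 to 0.11 for Cd200r3, -0.12 to 0.063 for Cd200r4, -0.035 to 0.067 for Sirpa and -0.042 to 0.068 for Cd300lf. For pathway genes they were -0.028 to 0.095 for Hcst, -0.085 to 0.077 for Inpp5d, -0.14 to 0.56 for Dok1, -0.051 to 0.25 for Syk, -0.14 to 0.71 for Cd300ld, -0.24 to 0.027 for Lair1 and -0.089 to 0.0054 for Oscar. As deposited, Cd300lf was -0.0033 and Inpp5d -0.014; with median centring they were -0.00090 and -0.012. By cyclic loess, Sirpa was -0.018 and Inpp5d -0.050. With gene-by-gene weights, Cd200r3 was -0.0079, Sirpa -0.032, Ptpn11 -0.010, Inpp5d -0.038, Dok1 -0.099, Syk -0.058, Cd300ld -0.11 and Oscar 0.0018. With the other weights, Cd200r3 was -0.037, Sirpa -0.041, Thbs1 0.0014, Ptpn11 -0.043, Inpp5d -0.014, Dok1 -0.16, Syk -0.10, Cd300lb -0.016, Cd300ld -0.19 and Oscar 0.037. Without controls 1 and 2 together, Cd200r3 was -0.026, Sirpa -0.037, Ptpn11 -0.048, Inpp5d -0.021, Dok1 -0.16, Syk -0.10, Cd300lb -0.015, Cd300ld -0.19 and Oscar 0.043, with control 3 as the lone control assumed to vary like the NPFF arrays.

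The deviations of same-numbered arrays correlated at 0.23, 0.451 and -0.331, and 1 of 3 controls correlated best with its own number. With 3 arrays per group, these values neither show nor exclude a pairing by replicate number. With the replicate number as a block the count was again 0, and 396 genes had an unadjusted p under 0.05. Cd200 and Cd200r3 were below the dim-gene filter and have no value there. Dim features, such as those of Cd200, Cd200r2 and Cd200r3, carry little signal over background, so their small differences say little. The feature of Cd200r1 was itself only at the 45.33rd percentile of mean signal.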
